A study of Ovis aries with 12 samples.

Results

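The imprinted miRNAs that lie around the genes MEG3 and RTL1 were followed in cultured pulmonary artery endothelial cells of lambs. They were given as a list of 10 miRNAs, and every entry of the count table was taken that carries 1 of these names once the species prefix, the arm and the copy number are dropped. This gave 9 of the 470 entries of the table. They stand for 8 of the 10 listed miRNAs: miR-493 (both arms), miR-665, miR-431, miR-433, miR-127, miR-432, miR-136 and miR-370. No entry carries the names miR-337 or miR-770, which are not described further. All 9 entries have a sheep name, none shares its entry with another name, and all 9 passed the filter on low counts that left 468 entries for testing.

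The study compared small RNA of cells from lambs with persistent pulmonary hypertension of the newborn (PPHN; 6 libraries, numbered 7 to 12) and from lambs with sham surgery (control; 6 libraries, numbered 1 to 6). In the PPHN lambs the ductus arteriosus, the fetal vessel that carries blood past the lung, was tied off surgically near day 125 of gestation, and it stayed closed for 5 to 7 days. In both groups the cells came from the main pulmonary artery, were purified with CD31 antibody on magnetic beads and were grown between passages 2 and 5 in the same medium with serum, so the values are those of cultured cells and not of the vessel. No label ties a library to a lamb, so the p-values rest on the spread among these libraries. Some of that spread may be technical. The counts over the 470 entries ranged from 2250077 to 17740932 in PPHN libraries and from 4101316 to 11171643 in control libraries; they are not the whole sequencing depth. Levels are in CPM, counts scaled to the library total with TMM factors, and each read is 1 mature miRNA, so no scaling by length was applied. Control 2, PPHN 8 and PPHN 11 stood apart from the other libraries in holding little of the endothelial miRNA miR-126, with a summed level of 172 to 203 CPM against 10956 CPM or more in the other 9 libraries. The main results are therefore given with and without these 3 libraries. In bulk cultures, fewer cells of a type and less RNA per cell cannot be told apart.

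The DLK1-DIO3 region is imprinted: the 2 parental copies of the chromosome are not used alike. The non-coding RNA MEG3, named GTL2 in sheep, and the miRNAs downstream of it are made from the maternal copy, while the protein-coding genes DLK1 and RTL1 are made from the paternal copy. Several of the miRNAs are made from the strand opposite to RTL1, and in mice they pair fully with the RTL1 transcript and cut it. In sheep the region is known for the callipyge mutation between DLK1 and MEG3, which changes the output of the whole domain in muscle and gives heavy hindquarters. All 8 hairpins were found on sheep chromosome 18 in the RefSeq gene table (assembly ARS-UI_Ramb_v3.0), as the first 8 of 55 miRNA genes between DLK1 and DIO3. The order is GTL2, then miR-493 and miR-665, then miR-431, miR-433, miR-127, miR-432 and miR-136, all 5 of which lie within the span of RTL1, and then miR-370. The build behind the counts is not given in the sources used here, so this table served only for names and for the order of genes.

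The summed level of the 9 entries varied far more between libraries of 1 group than between the groups. The lowest of the PPHN libraries, PPHN 8, had 143 CPM, the median was 2509 CPM and the highest, PPHN 11, had 8431 CPM. The lowest of the control libraries, control 2, had 241 CPM, the median was 3120 CPM and the highest, control 6, had 6066 CPM. The extremes of the whole series thus lie within the PPHN group, and the range of the controls falls inside that of PPHN. The 9 entries held 0.0161% to 0.927% of all counts in PPHN libraries and 0.0298% to 0.531% in control libraries. In sum 4 libraries, PPHN 8, PPHN 10, control 2 and control 4, had less than 1000 CPM, and PPHN 12 was between them and the other 7.

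Among the miRNAs within the span of RTL1, miR-127 is by far the most abundant and was the 40th of the 468 tested entries by mean level. In mice it acts on RTL1 from the opposite strand and is needed for normal growth of the placenta. The entry oar-miR-127 stood between 128 CPM (PPHN 8) and 7536 CPM (PPHN 11), with a median of 2274 CPM, in PPHN libraries and between 225 CPM (control 2) and 5580 CPM (control 6), with a median of 2824 CPM, in control libraries. The highest library was 58.8-fold above the lowest, and the groups overlapped over the whole range of the controls. Reads of oar-miR-127 made up 89.4% to 92.4% of all reads of the 9 entries in PPHN libraries and 89.8% to 93.1% in control libraries, so this share hardly moved while the level did.

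The other miRNAs within RTL1 were present at a small part of that level. The entry oar-miR-432 ranged from 2.34 to 257 CPM (median 32.6 CPM) in PPHN libraries and from 4.34 to 106 CPM (median 53.6 CPM) in control libraries. The entry oar-miR-431 ranged from 0 to 32.4 CPM (median 4.59 CPM) in PPHN libraries and from 1.54 to 15.7 CPM (median 11.9 CPM) in control libraries. The count of 0 was that of PPHN 8, where a count of 0 allows up to 1.00 CPM. For oar-miR-433-3p the range was 0.334 to 17.8 CPM (median 5.06 CPM) in PPHN libraries and 0 to 19.0 CPM (median 7.86 CPM) in control libraries, with the count of 0 in control 2, which allows up to 0.592 CPM. The entry oar-miR-136, the least abundant of the 9, ranged from 0.754 to 28.7 CPM (median 4.99 CPM) in PPHN libraries and from 0.197 to 11.0 CPM (median 3.80 CPM) in control libraries. It had 4 counts or fewer in 4 libraries, namely PPHN 8, PPHN 10, control 1 and control 2, where its level cannot be read closely. All 4 entries overlapped between the groups and were highest in PPHN 11, except oar-miR-433-3p, which was highest in control 6.

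Upstream of RTL1, oar-miR-665-3p was the second most abundant of the 9 entries. Its level ranged from 6.01 to 230 CPM (median 106 CPM) in PPHN libraries and from 6.32 to 170 CPM (median 100 CPM) in control libraries. The first miRNA gene after MEG3, miR-493, had reads of both arms of its hairpin. The 3p arm ranged from 1.34 to 144 CPM (median 36.2 CPM) in PPHN libraries and from 1.38 to 94.4 CPM (median 58.8 CPM) in control libraries. The 5p arm ranged from 2.67 to 158 CPM (median 27.6 CPM) in PPHN libraries and from 2.17 to 75.0 CPM (median 40.2 CPM) in control libraries. Downstream of RTL1, oar-miR-370-3p ranged from 1.00 to 27.5 CPM (median 11.2 CPM) in PPHN libraries and from 0.395 to 20.2 CPM (median 15.5 CPM) in control libraries. For these 4 entries PPHN 8 was the lowest PPHN library, control 2 the lowest control library and PPHN 11 the highest of all.

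**Figure D1:**
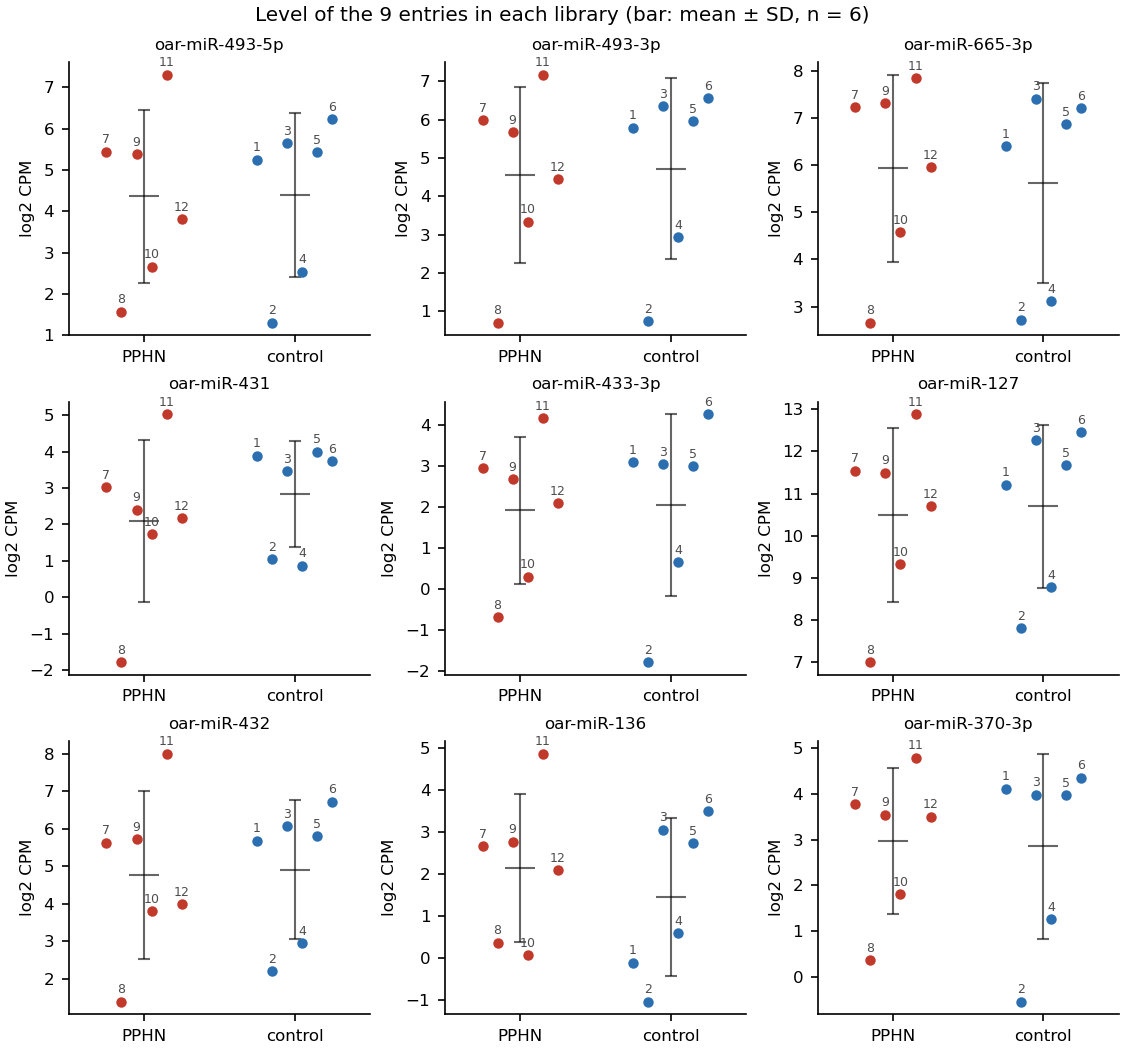
Level of each of the 9 entries in log2 CPM (prior count 2) in PPHN libraries (left, red) and control libraries (right, blue), with library numbers beside the points and the mean ± SD (n = 6) as a bar; entries are in the order of their hairpins along the chromosome. In every panel PPHN 8 and control 2 or control 4 lie low, PPHN 11 is the highest PPHN library, and the groups overlap.

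The spread over the 12 libraries was large against that of most other miRNAs. The SD of log2 CPM was 1.74 to 2.22 for the 9 entries, with a median of 1.93, while the median over all 468 tested entries was 0.74. By this SD the 9 entries held ranks between 33 and 88 of 468. This was not particular to them. The 38 tested entries of the cluster further downstream, from miR-379 to miR-656, had a median SD of 1.74 and ranks between 20 and 135. The spread of the 9 entries was of the same order within each group: for oar-miR-127 the SD of log2 CPM was 2.07 over PPHN libraries and 1.93 over control libraries (n = 6 each). 

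The 9 entries varied together. Over the 12 libraries, the 36 pairs among them had Pearson correlations of log2 CPM between 0.66 and 0.99, with a median of 0.94, while the median over all 109278 pairs of tested entries was -0.01. The pairs share their libraries and scaling, and the lowest value was that of oar-miR-136 with oar-miR-431, which both have few counts. Within PPHN libraries alone the pairs had a median of 0.96 (lowest 0.83), and within control libraries alone a median of 0.97 (lowest 0.64). Against oar-miR-127, 7 of the 8 other entries passed an adjusted p of 0.05 within PPHN libraries (exact permutation test; 7.49% of all 467 entries), and 3 of the 8 within control libraries (3.64%). With 6 libraries the smallest p this test can give is 0.00139, and r of the 8 entries was 0.893 to 0.996 within PPHN and 0.843 to 0.993 within control libraries.

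Against oar-miR-127, each of the other 8 entries was correlated at a Benjamini-Hochberg adjusted p under 0.05 (permutation test, two-sided, adjusted over all 467 other tested entries), where 10.5% of all these entries were positively correlated at that threshold. The closest was oar-miR-493-3p, with r = 0.99 (permutation p = 1e-05, the smallest that 100000 resamples can give; adjusted p = 0.000133) and Spearman rho = 0.99 (permutation p = 1e-05). The farthest was oar-miR-136, with r = 0.84 (permutation p = 0.00061; adjusted p = 0.00606) and rho = 0.87 (permutation p = 0.00052). The median r of the 8 was 0.97. PPHN 8 and control 2 were the 2 libraries farthest from the median level of oar-miR-127. Without them, all 8 kept an adjusted p under 0.05 (10.1% of all 467 entries), with r between 0.82 and 0.99. Within the 8 libraries with the highest level of oar-miR-127, a set chosen after seeing the data, r was between 0.74 and 0.95, and 3 of the 8 entries passed (exact permutation test; 4.28% of all 467 entries): both arms of miR-493 and oar-miR-432. Without control 2, PPHN 8 and PPHN 11 together, 7 of the 8 passed (9.19% of all 468 entries compared there), and oar-miR-136 had r = 0.76 (exact permutation p = 0.0190; adjusted p = 0.125).

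The miRNAs of the large cluster downstream, from miR-379 to miR-656, moved with them. Of 38 tested entries on the list of that cluster, 35 were positively correlated with oar-miR-127, with a median r of 0.95. Highest among those with a mean of at least 10 CPM were oar-miR-487b-3p, oar-miR-409-3p, oar-miR-3958-3p, oar-miR-3959-5p and oar-miR-369-5p, with r between 0.985 and 0.994 and an adjusted p of 0.000133 each (permutation test). By the gene table, which also places miR-411a in the cluster, 46 tested entries beside oar-miR-127 have their hairpin between DLK1 and DIO3. Of these, 44 were positively correlated, or 95.7%, against 5 of the 421 other entries, or 1.19%. The match was by sheep name, and those 5 include hsa-miR-656-3p, which is on the cluster list. They also include rno-miR-409b and rno-miR-3578, whose total counts lie close to those of cluster entries. The 1.19% is thus not the share among entries of other loci. The entry most like oar-miR-127 over all 467 was oar-miR-411a-5p, at a mean of 1314 CPM, with r = 0.997 and rho = 1 (permutation p = 1e-05). The 2 entries of the region that missed the threshold were oar-miR-154a-3p (r = 0.75, permutation p = 0.0059, adjusted p = 0.0501) and oar-miR-541-3p (r = 0.64, permutation p = 0.0256, adjusted p = 0.132), named here after their values were seen. The bovine-named entry bta-miR-1247-5p, on the cluster list because miR-1247 lies beside DIO3 at the other end of the region in human and mouse, had r = -0.46 (permutation p = 0.132, adjusted p = 0.353).

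**Figure D2:**
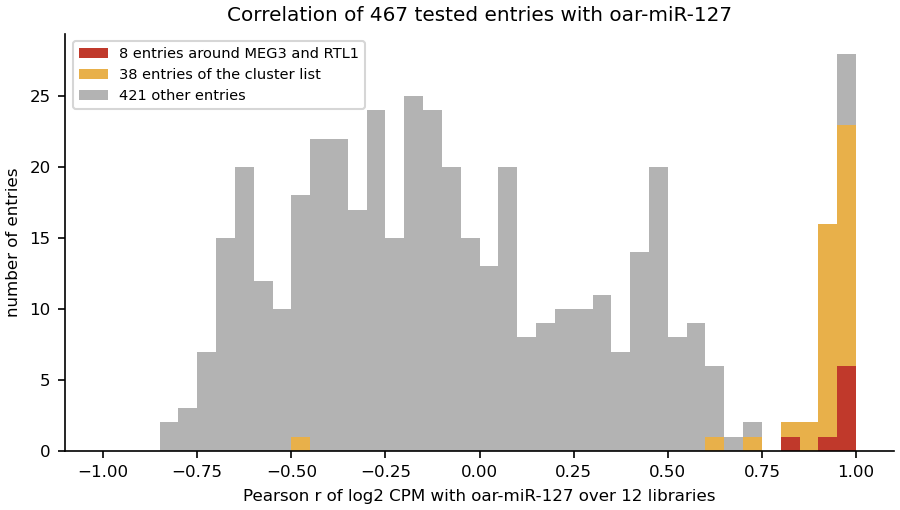
Number of entries by Pearson r of log2 CPM with oar-miR-127 over the 12 libraries, for the 8 other entries around MEG3 and RTL1 (red), the 38 entries of the cluster list (yellow) and the 421 other entries (grey), stacked in bins of r. The 8 entries have a median r of 0.97 and the cluster list one of 0.95. The grey entries include oar-miR-411a-5p and oar-miR-411a-3p of the cluster, with r of 0.997 and 0.980. They also include rno-miR-409b and rno-miR-3578, with r of 0.991 and 0.986 and total counts close to those of cluster entries.

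Of entries on neither list and with a mean of at least 10 CPM, the 5 most like oar-miR-127 were oar-miR-411a-5p, rno-miR-409b, rno-miR-3578, oar-miR-411a-3p and oar-let-7b. The total counts of rno-miR-409b were 0.91 times those of oar-miR-409-3p, with 0.876 to 0.953 in single libraries. Those of rno-miR-3578 were 0.987 times those of oar-miR-369-5p, with 0.75 to 1.01 in single libraries. In total counts these entries with rat names lie close to entries of the cluster. The first entry of another locus, oar-let-7b, had r = 0.67 (permutation p = 0.0177, adjusted p = 0.110) and rho = 0.65 (permutation p = 0.0254).

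The summed level of the 9 entries was 2.07 to 3.26 times that of the 38 entries of the cluster list in PPHN libraries. In control libraries it was 1.33 to 2.96 times that sum. This ratio differed 2.46-fold between its extremes, control 2 and PPHN 12. The summed level of the 9 entries differed 59.0-fold and that of the cluster list 52.5-fold between libraries. The list leaves out the miR-411a entries, which the gene table places in the cluster. In means, oar-miR-411a-5p alone had 1188 CPM in PPHN and 1441 CPM in control libraries. The sum of the 38 listed entries had means of 1225 CPM in PPHN and 1239 CPM in control libraries. A ratio to the whole cluster would therefore be lower than the values given here.

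**Figure D3:**
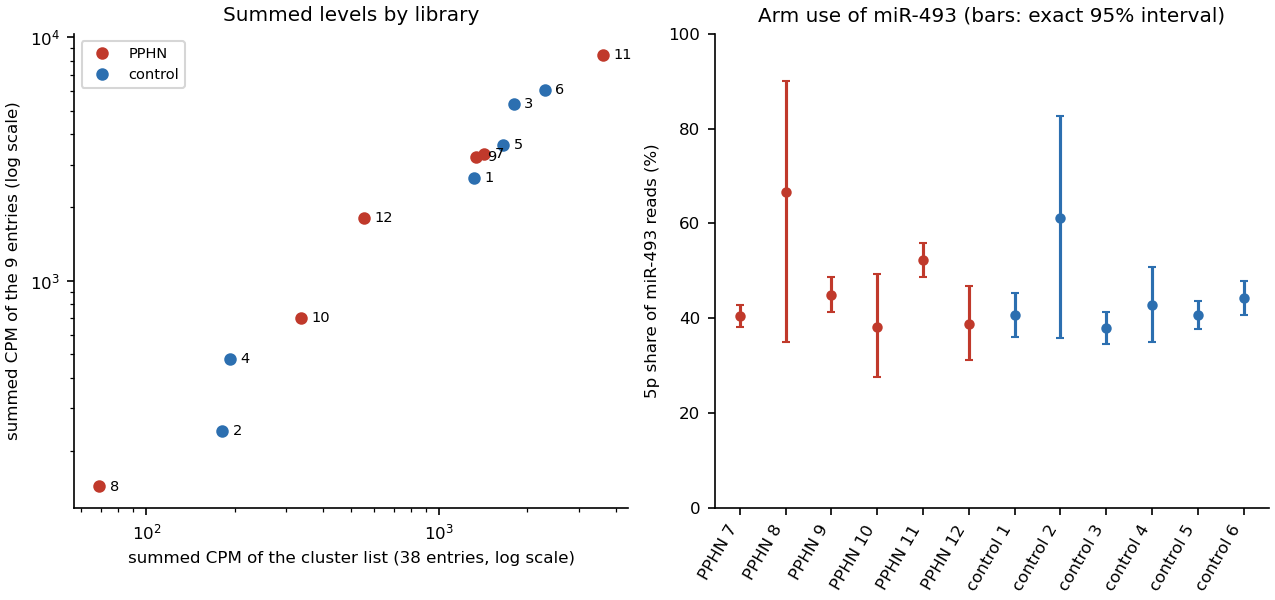
Left: summed CPM of the 9 entries against that of the 38 entries of the cluster list, both on log scales. Each point is 1 library with its number (PPHN red, control blue). Points run along 1 line from PPHN 8 to PPHN 11. The cluster list leaves out the miR-411a entries. Right: share of the 5p arm in the reads of miR-493 in each library, with its exact (Clopper-Pearson) 95% interval; PPHN 8, PPHN 11 and control 2 lie above 50%.

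Markers of cell types were set beside these levels. The lists hold 6 entries of 3 endothelial markers (miR-126), 3 entries of 2 smooth muscle markers (miR-143, miR-145), 8 entries of 3 of 4 fibroblast markers (miR-199 and miR-214), 2 entries of 2 of 3 blood markers (miR-451, miR-486) and 1 entry of 1 of 5 epithelial markers (oar-miR-200b). Over 12 libraries, 0 of these 20 entries passed the threshold against oar-miR-127, with r from -0.40 to 0.59, and the highest r belonged to oar-miR-143 (permutation p = 0.0483, adjusted p = 0.196; rho = 0.54). For the endothelial and smooth muscle entries this depended on PPHN 11. That library had the highest level of the 9 entries. It had little of miR-126 (187 CPM in sum) and of the smooth muscle markers (2389 CPM in sum). Without PPHN 11, oar-miR-143 had r = 0.85 (permutation p = 0.00177, adjusted p = 0.0134) and the most abundant miR-126 entry, mmu-miR-126b-3p, r = 0.82 (permutation p = 0.00294, adjusted p = 0.0191). All 6 endothelial and all 3 smooth muscle entries then passed, and 75 entries in all were positively correlated against 49 with PPHN 11. Without control 2, PPHN 8 and PPHN 11 together, oar-miR-143 had r = 0.70 (adjusted p = 0.170, exact permutation test) and mmu-miR-126b-3p r = 0.40 (adjusted p = 0.537). Summed marker levels were 187 to 64404 CPM in PPHN and 172 to 102467 CPM in control libraries for the endothelial list, 2158 to 253906 CPM and 2212 to 301452 CPM in the same order for smooth muscle, 135 to 9619 CPM and 3223 to 19404 CPM for fibroblast, 15.4 to 203 CPM and 69.0 to 900.4 CPM for blood, and 29.5 to 150.4 CPM and 0 to 398 CPM for epithelial markers. The defining markers mmu-miR-126b-3p and oar-miR-143 had reads in all 12 libraries, and oar-miR-200b was at 0 in 2. The part of cell types in the joint variation was not tested.

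Between PPHN and control cells, 0 of the 9 entries passed an adjusted p of 0.05 (edgeR quasi-likelihood test, Benjamini-Hochberg adjustment over all 468 tested entries), as did 0 of all 468, or 0%. At an unadjusted p under 0.05 there were 0 of the 9 and 49 of all 468, or 10.5%. DESeq2 called 12 of all entries (2.56%) after adjustment and limma-voom 0 (0%), with 0 of the 9 by either tool. At an unadjusted p under 0.05, DESeq2 had 15.4% and limma-voom 9.4% of all entries, with 0 of the 9 by either. The groups did not overlap for 0 of the 9 entries, against 1.28% of all tested entries.

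By direction, 4 of the 9 entries were higher and 5 lower in PPHN, with a median log2 fold change of -0.05, against -0.08 over all 468 tested entries. The largest difference was that of oar-miR-136, with a log2 fold change of 0.75 (SE 1.00, edgeR adjusted p = 0.906). The mean level of oar-miR-127 was 2639 ± 2661 CPM in PPHN cells and 2800 ± 2226 CPM in control cells (SD, n = 6 each), with a log2 fold change of -0.09 (SE 0.89, edgeR adjusted p = 0.976). The values of the other 7 entries lay between -0.28 (oar-miR-433-3p) and 0.42 (oar-miR-432), each with an SE of 0.84 to 1.01. With SEs of this size, a difference of 1 on the log2 scale could not be told from 0. Of the cluster list, 20 entries were higher and 18 lower, with a median of 0.05 and 0 past the threshold. In the authors' deposited table the edgeR log2 fold change was -0.09 for oar-miR-127 and 0.75 for oar-miR-136, and the lowest edgeR q-value of the 9 entries was 0.901.

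Single libraries of both groups set the direction of these small differences. Without PPHN 11 all 9 entries were lower in PPHN, with log2 fold changes from -1.22 to -0.15, a median of -0.76 and a lowest adjusted p of 0.762 (edgeR). Without control 6, 8 of the 9 were higher in PPHN, with a median of 0.26. Without PPHN 8 or PPHN 10, 8 of the 9 were also higher, with medians of 0.20 and 0.14. Without control 2, PPHN 8 and PPHN 11 all 9 were also lower, with a median of -0.71 against -0.15 over all tested entries. In that setting oar-miR-431 had the largest difference, a log2 fold change of -1.16 (SE 0.61, edgeR unadjusted p = 0.0885, adjusted p = 0.846). The 9 entries vary together, so their shared direction is not 9 separate results.

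**Figure D4:**
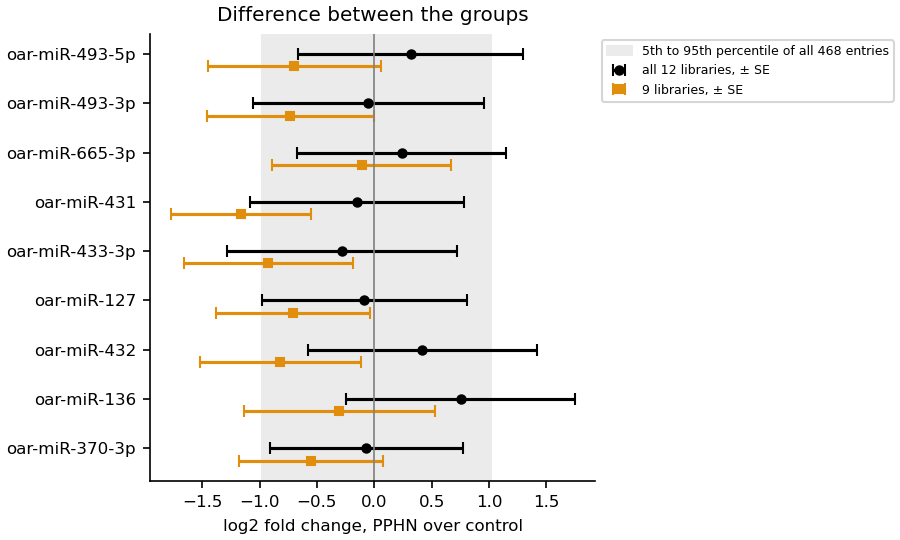
Log2 fold change (PPHN over control) of each of the 9 entries with its SE, in all 12 libraries (black circles) and in the 9 libraries without control 2, PPHN 8 and PPHN 11 (orange squares); the grey band spans the 5th to the 95th percentile over all 468 tested entries. With 12 libraries the values lie between -0.28 and 0.75, and with 9 libraries all lie below 0.

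Ratios between miRNAs of 1 library do not depend on the scaling of libraries, and the reads of each entry were counted per 1000 reads of oar-miR-127 (with 1 count added to each). The entry oar-miR-665-3p had the most reads of these 8 entries in every library except PPHN 11, where oar-miR-432 had more. In means, oar-miR-665-3p had 43.3 ± 9.59 reads per 1000 in PPHN and 30.1 ± 6.57 in control (SD, n = 6 each), above oar-miR-432 with 20.2 ± 8.09 in PPHN and 18.1 ± 2.81 in control. Next came oar-miR-493-3p, with 16.7 ± 3.36 in PPHN and 16.6 ± 5.35 in control, and oar-miR-493-5p, with 15.2 ± 5.98 in PPHN and 12.6 ± 2.12 in control. Each of these 3 lay within the spread of its neighbour in this order. The last 4 lay close together. Group means were 5.77 in PPHN and 4.41 in control for oar-miR-370-3p, 3.17 in PPHN and 4.68 in control for oar-miR-431, 2.77 in PPHN and 2.51 in control for oar-miR-433-3p, and 3.76 in PPHN and 1.78 in control for oar-miR-136. How well a sequence is ligated in library making differs between miRNAs, so the order is one of reads.

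These ratios varied less than the levels. Over all 12 libraries the SD of the log2 ratio to oar-miR-127 was 0.426 to 1.102, lowest for oar-miR-665-3p and highest for oar-miR-136, where the SD of the log2 level was 1.74 to 2.22. In libraries with at least 10 counts of the entry, the SD of the ratio was 0.23 for oar-miR-493-3p (10 libraries; 0.45 over all 12), where the SD of its log2 level was 1.40. For the other 7 entries it was 0.35 to 0.60, against 1.08 to 1.97 for the level, with 0.38 for oar-miR-136 (8 libraries). The widest of these was oar-miR-431, with 1.78 reads per 1000 in PPHN 9 and 6.19 in control 1.

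The ratio of oar-miR-665-3p to oar-miR-127 was 1.44-fold higher in PPHN. It ranged from 30.5 (PPHN 11) to 55.0 (PPHN 9) reads per 1000 in PPHN libraries and from 19.1 (control 4) to 35.6 (control 5) in control libraries. Of the PPHN libraries 5 lay above every control library, and PPHN 11 lay among the controls. The difference had an unadjusted p of 0.0238 (exact permutation test, two-sided, over all 924 assignments), and an adjusted p of 1 over the 467 entries whose ratio was tested in the same way, of which 4, or 0.857%, had an unadjusted p under 0.05. So the difference fails the correction, and the test was chosen after seeing the data. Most of the 467 entries lie outside the region, where the ratio also carries the spread of oar-miR-127 (SD of log2 CPM 1.91 over 12 libraries). The 0.857% is therefore not a background of like ratios. With each library left out in turn the unadjusted p was between 0.00216 (without PPHN 11, the smallest that 11 libraries allow) and 0.0476 (without control 4). The adjusted p was 0.927 or more in each of these settings, and 0.969 without PPHN 11, so the difference fails the correction there too. Without control 2, PPHN 8 and PPHN 11 the log2 difference was 0.59 (exact permutation p = 0.0238, adjusted p = 0.984), against 0.53 over all 12 libraries. Set over the summed counts of the cluster list in place of oar-miR-127, the log2 difference was 0.62 (exact permutation p = 0.0411). The other 7 ratios had unadjusted p-values of 0.134 or more, the lowest being that of oar-miR-136 with a log2 difference of 0.97. Its extremes, PPHN 8 and control 1, had 3 counts each.

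**Figure D5:**
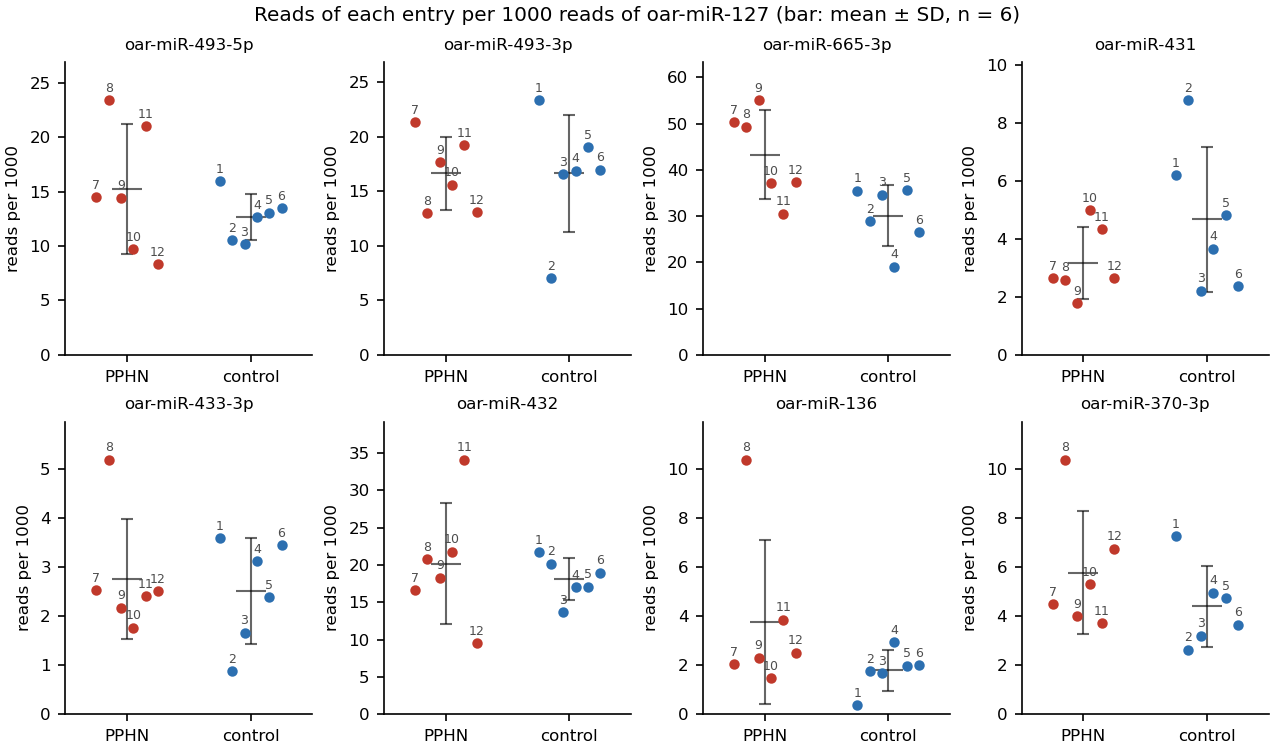
Reads of each of 8 entries per 1000 reads of oar-miR-127 in PPHN libraries (left, red) and control libraries (right, blue), with library numbers and the mean ± SD (n = 6); axes start at 0. For oar-miR-665-3p, 5 of the 6 PPHN libraries lie above all control libraries, at 37.1 to 55.0 against 19.1 to 35.6.

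Both arms of miR-493 were counted, which makes it the only one of the 8 miRNAs whose arm use can be followed. The 5p arm took 38.1% to 66.7% of its reads in PPHN libraries and 38.0% to 61.1% in control libraries. In PPHN 11 the share was 52.3% (391 of 748 reads; exact Clopper-Pearson 95% interval 48.6% to 55.9%). The libraries PPHN 8 and control 2 had only 12 and 18 reads, with intervals of 34.9% to 90.1% and 35.7% to 82.7%. In the other 9 libraries the 3p arm was the more abundant in each, with a 5p share of 38.0% to 44.9%. So the 3 libraries with a 5p share above 50% were those with little miR-126, a set that was defined from the data and was not compared by a test. Between PPHN and control the log2 ratio of the arms differed by 0.13 (exact permutation p = 0.682, adjusted p = 0.786 over 53 arm pairs, of which 0, or 0%, passed). The count minimum of 10 in each arm and library left miR-493 out of the planned test of 31 arm pairs, of which 5 passed. With single libraries left out, 0 to 7 pairs passed there. The value for miR-493 thus comes from the alternative without a minimum. Without control 2, PPHN 8 and PPHN 11 the difference for miR-493 was -0.04 (exact permutation p = 0.762).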

How the data were processed

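Small RNA was sequenced in 6 PPHN and 6 control libraries. The values used are raw counts of reads for each miRNA entry, as deposited; the authors' table also holds, per the file headers, p-values, q-values and log2 fold changes from DESeq, DESeq2 and edgeR. The submitters' processing notes list Bowtie 1.1.1 and Trim Galore 0.2.5. Settings, build and miRNA reference: not given in the sources used here. Of 470 entries 149 join several names, and some entries nearly repeat the counts of others.

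Differences were tested with edgeR 4.0.16 (R 4.3.3; quasi-likelihood, robust, filterByExpr, TMM), with DESeq2 1.42.0 and limma-voom (limma 3.58.1) as alternatives. The SE is the size of a log2 fold change over the root of its F. Log2 CPM used a prior count of 2. Correlations were tested by permutation (NumPy 2.4.6), exactly below 10 libraries. Ratios, also those of arms, were tested by exact permutation over all assignments to groups, at any number of libraries. Threshold: adjusted p of 0.05 over all tested entries. Intervals and the limit of 3 counts cover counting error only. No library repeats another: chi-square over degrees of freedom was at least 386 for each pair. Tests were checked on simulated data with known answers. For edgeR, DESeq2 and limma-voom the simulation had less dispersion than these data and larger differences than the 9 entries show. It therefore does not give their power here. Members, lists and the rule for named entries (all 9 entries, and the 5 most correlated of the cluster and of other entries at 10 CPM or more) were chosen with earlier results of these data known.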

Additional observations from a re-analysis of the deposited data

Results flagged for a closer look

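Of 40 groups of 6 libraries examined by Dixon's test on untransformed values, 8 held a library far from the others. Chance gives about 5% of groups only for normally distributed values, which CPM levels with so wide a spread need not be. The groups also share libraries and the entries vary together, so the 8 cannot be set against that share. The test was not run on the log2 scale. There, oar-miR-432 was at 8.01 in PPHN 11, 5.72 in PPHN 9, the next highest PPHN library, and 1.39 in PPHN 8, the lowest. PPHN 11 stood above the rest of its group for 4 entries. Its level of oar-miR-432 was 257 CPM, where the other PPHN libraries spanned 2.34 to 52.6 CPM. For oar-miR-493-5p it had 158 CPM (others 2.67 to 43.2 CPM), for oar-miR-431 32.4 CPM (others 0 to 7.82 CPM) and for oar-miR-136 28.7 CPM (others 0.754 to 6.53 CPM). In PPHN 8, oar-miR-433-3p had 5.19 reads per 1000 reads of oar-miR-127 against 1.77 to 2.53 in the other PPHN libraries, and oar-miR-136 had 10.4 against 1.47 to 3.86; these rest on 1 and 3 counts. In control 2 the 5p arm took 61.1% of the reads of miR-493 against 38.0% to 44.2% in the other controls, from 18 reads. In PPHN 12 the summed level of the 9 entries was 3.26 times that of the cluster list against 2.07 to 2.40 times in the other PPHN libraries. The cluster list leaves out the miR-411a entries.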

How the results depend on the processing

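Under all alternatives run, 0 of the 9 entries passed the edgeR, DESeq2 or limma-voom threshold between PPHN and control (lowest adjusted p 0.762). Over all entries 0 passed, but 12 with DESeq2, and 0 to 1 with each library left out (1 without PPHN 8); the cause was not tested. Small log2 fold changes turned sign in 37 of 168 comparisons. They turned with limma-voom for oar-miR-432 (-0.026), oar-miR-433-3p (0.34) and oar-miR-370-3p (0.28), and with the filter of 10 CPM for oar-miR-127 (0.025), oar-miR-370-3p (0.017) and oar-miR-493-3p (0.050). Without control 2, PPHN 8 and PPHN 11 they turned for oar-miR-136 (-0.30), oar-miR-432 (-0.82), oar-miR-493-5p (-0.70) and oar-miR-665-3p (-0.11). With each library left out in turn, log2 fold changes ranged from -0.29 to 1.22 for oar-miR-136, -0.86 to 0.80 for oar-miR-432, -0.72 to 0.68 for oar-miR-493-5p, -0.15 to 0.49 for oar-miR-665-3p, -0.93 to 0.26 for oar-miR-433-3p, -1.22 to 0.11 for oar-miR-431, -0.76 to 0.23 for oar-miR-127, -0.54 to 0.17 for oar-miR-370-3p and -0.77 to 0.23 for oar-miR-493-3p; each lowest value came without PPHN 11, and each highest without control 6, or without PPHN 8 for oar-miR-665-3p, oar-miR-431 and oar-miR-370-3p. The count of 8 entries correlated with oar-miR-127 was 8 with each library left out, 5 of the 5 entries that pass the filter of 10 CPM, 7 without control 2, PPHN 8 and PPHN 11, 7 within PPHN libraries, 3 within control libraries, and 3 in the 8 libraries with the highest level, where fewer libraries were used. It was 8 with RLE scaling, a prior count of 0.5, Spearman's rho and group means subtracted. Over all entries compared, 49 of 467 were positively correlated in the main setting and 75 of 468 without PPHN 11. Leaving out any other single library gave between 47 (without control 5) and 50 (without PPHN 12). With the filter of 10 CPM, 24 of 310 passed. RLE scaling, Spearman's rho and group means subtracted gave 50 of 467 each, and a prior count of 0.5 gave 48. The filter of 10 CPM left no value for oar-miR-431, oar-miR-433-3p and oar-miR-136. Counts under 10 in PPHN 8 and control 2 limit the ratios of the rarer entries.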

Other observations

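Beside the 44 entries whose hairpins lie in the region, 5 entries were positively correlated with oar-miR-127 but match no hairpin there by sheep name in the gene table. They were rno-miR-409b, rno-miR-3578, mmu-miR-3071-3p (r = 0.96, permutation p = 2e-05, adjusted p = 0.000222), hsa-miR-656-3p (r = 0.95, permutation p = 1e-05, adjusted p = 0.000133) and smo-miR1109 (r = 0.72, permutation p = 0.00552, adjusted p = 0.0477). Of these, hsa-miR-656-3p is on the cluster list. In the 9 libraries other than control 2, PPHN 8 and PPHN 11, smo-miR1109 had r = 0.47 (exact permutation p = 0.208, adjusted p = 0.446), and the other 4 still passed. Negatively correlated were 5 entries, named after their values were seen: mmu-miR-98-3p, from the hairpin of the let-7 family member miR-98 (r = -0.81, permutation p = 0.00107, adjusted p = 0.0102), bta-miR-2284h-5p (r = -0.80, permutation p = 0.00117), ssc-miR-296-5p (r = -0.77, permutation p = 0.00388), mml-miR-6529-3p (r = -0.76, permutation p = 0.0047) and mmu-miR-99b-3p (r = -0.75, permutation p = 0.00439), with adjusted p-values of up to 0.0414. In the same 9 libraries mmu-miR-99b-3p alone of these 5 still passed (exact permutation test, adjusted p = 0.0430). The other 4 calls were lost, with adjusted p-values of 0.146 for mmu-miR-98-3p, 0.311 for bta-miR-2284h-5p, 0.161 for ssc-miR-296-5p and 0.0837 for mml-miR-6529-3p. Without PPHN 8 the number of negatively correlated entries was 14, and without PPHN 11 it was 39.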
